A study of Homo sapiens with 3 samples.

Results

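The 25 genes described here encode subunits of the proteasome and the proteins that assemble, activate or inhibit it. They were taken as every gene whose symbol began with PSMA, PSMB, PSMC, PSMD, PSME, PSMF or PSMG and that received at least 1 ribosome peak, a stretch of the genome where ribosome-protected mRNA fragments piled up, in any of 3 peak lists. A peak was given to the gene of the RefSeq transcript named in its annotation where the lists paired that transcript with a symbol, and otherwise to the gene name beside it. These genes held 291 of 46819 peaks and were 25 of the 3582 genes with a peak in any list. Of 48 human genes with such symbols that encode subunits, chaperones, activators or the inhibitor, 23 received no peak by this rule.

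The lists came from ribosome profiling of HEK293T, a human embryonic kidney cell line, harvested 24 h after transfection. A single library was made for each of 3 constructs: the empty vector, FLAG-tagged wild-type (WT) DDX3X, an RNA helicase, and FLAG-tagged DDX3X G325E, a missense form found in medulloblastoma. All cells received harringtonine at 2 µg/ml for 90 s and then cycloheximide at 100 µg/ml, per the labels, and no library was labelled as lacking the cells' own DDX3X. Each construct had 1 library, so no difference could be set against a spread between replicates. Every comparison is therefore a description of 3 libraries, with no p-value, and each interval covers counting error only. Several peaks of 1 mRNA share their source, which the intervals do not take into account.

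The vector list held 11219 peaks, the WT list 19920 and the G325E list 15680. Peaks carried a number that ran in genome order, and the vector list skipped 1952 numbers, the WT list 3099 and the G325E list 0. What the skipped numbers held is not analysed here, and their count around a gene is given where a 0 of that gene is described in full. The lists gave each peak a position without a height or read count, so read depth and ribosome number per mRNA are unknown, and a peak count cannot separate more mRNA from more ribosomes per mRNA. DDX3X itself had 0 peaks in the vector list, 32 in the WT list and 9 in the G325E list, with 2 numbers skipped around the gene in vector and 1 in WT. The labels' cell type field reads Neuronal. Of 6 neuronal markers only TUBB3 had peaks, and of 6 markers listed for the kidney line NEFM, NEFL and VIM had peaks in every list, KRT18 and KRT8 in the WT list alone and PAX2 in none. Of 5 immune cell markers CD74 alone had peaks, 9 in the vector list, 13 in the WT list and 9 in the G325E list.

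The proteasome degrades proteins that carry ubiquitin chains. Its 20S core is a barrel of outer alpha rings (PSMA genes) and inner beta rings (PSMB genes), and the beta rings hold the proteolytic sites. The 19S regulator caps the barrel: a ring of ATPases (PSMC genes) unfolds substrates and threads them into the core, while non-ATPase subunits (PSMD genes) bind ubiquitin, remove it or hold the complex together. PSME proteins are alternative activators of the core, PSMF1 binds and inhibits the core in vitro, and the PSMG proteins with a few PSMD proteins are assembly chaperones that do not stay in the finished particle.

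Harringtonine holds newly started ribosomes at start codons while others run on. The lists differed in which start codons lay under a peak, so these sequences are shown first. Each is 30 bases of the GRCh37 reference, 5′ to 3′ on the gene's strand, with 12 bases before the start codon, which is in capitals. In PSMD2, PSMD12, PSMD9 and PSME3 a peak lay over the start codon in all 3 lists.
PSMD2, chr3:184017043-184017072, + strand: gtggcggcggagATGgaggagggaggccgg
PSMD12, chr17:65362618-65362647, - strand: caggcggggaccATGgcggacggcggctcg
PSMD9, chr12:122326751-122326780, + strand: ccggggttcacgATGtccgacgaggaagcg
PSME3, chr17:40985637-40985666, + strand: cccggcccggccATGgcctcgttgctgaag

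In PSMA7, PSMD3, PSMD6 and PSME4 the start codon was under a listed peak in the G325E list alone. Around these genes, in that order, the vector list skipped 4, 1, 1 and 3 numbers, the WT list 2, 2, 4 and 4, and the G325E list 0. The absence of a vector or WT peak on these start codons therefore holds for listed peaks only.
PSMA7, chr20:60718342-60718371, - strand: ccgcccgccggcATGagctacgaccgcgcc
PSMD3, chr17:38137212-38137241, + strand: accccgggtgccATGaagcaggagggctcg
PSMD6, chr3:64009078-64009107, - strand: cccttcgccgcgATGccgctggagaacctg
PSME4, chr2:54197904-54197933, - strand: gtccctgggctcATGgagccggccgagcgg

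PSMC5 showed the other arrangement, with its start codon under a peak in the vector and WT lists and not in the G325E list. The G325E list had peaks close by on either side, at 61904804-61904837 and 61904860-61904874. The vector peak ran over 61904822-61904874 and the WT peak over 61904840-61904874, so G325E did not lack peaks at this start site.
PSMC5, chr17:61904839-61904868, + strand: tgaagagagaagATGgcgcttgacggacca
This window held 53.3% G and C, the lowest among the 11 start codons under a peak. The windows of the genes seen in G325E alone ran from 70% in PSMD3 and PSMD6 to 80% in PSMA7, and those of the genes seen in every list from 66.7% in PSMD9 to 80% in PSMD12, so these sets of start codons overlapped in composition.

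A further set shows what lay under peaks inside the coding sequence. For each gene the 30 bases at the centre of its widest coding peak were read, from the G325E list where that list had a coding peak, and otherwise from the WT list where G325E had no peak in the gene. The first lines come from WT peaks of genes with no G325E peak.
PSMC4, chr19:40480272-40480301, + strand: ctccacaagcacagcaatgcactggtggac
PSMC3, chr11:47445639-47445668, - strand: gccatggaggtagacgagaggcccacggag
PSME1, chr14:24607974-24608003, + strand: cttcgagaagctcaagaagcccaggggaga
PSMA1, chr11:14526754-14526783, - strand: tgctgatgaacctgcagaaaaggctgatga
PSMC1, chr14:90726487-90726516, + strand: taccaactagagtggggaaaaagaagaaga
PSMD7, chr16:74339300-74339329, + strand: tcgccacaggcaagctgcccatcaaccacc

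The next lines come from G325E peaks.
PSMD4, chr1:151238506-151238535, + strand: gcggcagcggcaggaggaggaggcccggcg
PSMD3, chr17:38137250-38137279, + strand: ccgcggcgcggacaaggcgaaaccgccgcc
PSMD2, chr3:184017095-184017124, + strand: agcagtctccagcggcggcccccggcggca
PSMB4, chr1:151373743-151373772, + strand: agccagtgctaagccagaccgaggcccgcg
PSMF1, chr20:1145673-1145702, + strand: acctaacccagaccatctccccccgccggg
PSMD8, chr19:38873949-38873978, + strand: gccggaagacaccaccattccctccacaga
The 9 windows of the WT kind had a median of 56.7% G and C, from 40% in PSMC1 to 66.7% in PSMC3. The 15 windows of the G325E kind had a median of 70% and ran from 53.3% in PSMA4 to 83.3% in PSMD4 and PSME4. The windows of each kind came from different genes and different codons, and the WT kind from genes picked for having no G325E peak. These medians therefore do not compare the lists at the same places, and no value over other genes stands beside them.

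Proteasome genes held 77 peaks in the vector list, 147 in the WT list and 67 in the G325E list. As a share of each list this was 0.686% in vector (95% Wilson interval 0.549 to 0.857%), 0.738% in WT (0.628 to 0.867%) and 0.427% in G325E (0.337 to 0.542%). The G325E share was thus 0.579 times the WT share and 0.623 times the vector share, and its interval did not meet either of theirs, while the vector and WT intervals overlapped. Counted as peaks inside the genes on their strand (65, 130 and 65), the shares were 0.579% in vector (0.455 to 0.738%), 0.653% in WT (0.550 to 0.774%) and 0.415% in G325E (0.325 to 0.528%), and the G325E interval then met that of vector. It also met that of vector (0.468 to 0.730%) when shares were taken of the highest peak number in place of the listed peaks, and not that of WT (0.544 to 0.750%). In genes, 20 of the 25 had a peak in vector, 23 in WT and 16 in G325E. Of all 3582 genes with a peak in any list, 2023 had one in vector, 3007 in WT and 2312 in G325E. A peak in every list was found for 13 genes, whereas 6 had peaks in vector and WT but not in G325E (PSMA3, PSMC1, PSMC2, PSMC4, PSMD7 and PSME1). How many of all genes had these patterns was not counted, so neither number can be read as particular to the proteasome.

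The annotation did not always name the gene in which a peak lay, so peaks inside each gene on its own strand were counted as well. By this count 20 of the 48 proteasome genes had a peak in vector, 24 in WT and 17 in G325E, which is 41.7%, 50% and 35.4%. Among all 19869 protein-coding genes the same count was 9.81% in vector, 14.9% in WT and 11.7% in G325E. PSMB7, a catalytic beta subunit outside the rule here, had 3 WT peaks in its coding sequence that the annotation gave to an overlapping non-coding gene.

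**Figure D1:**
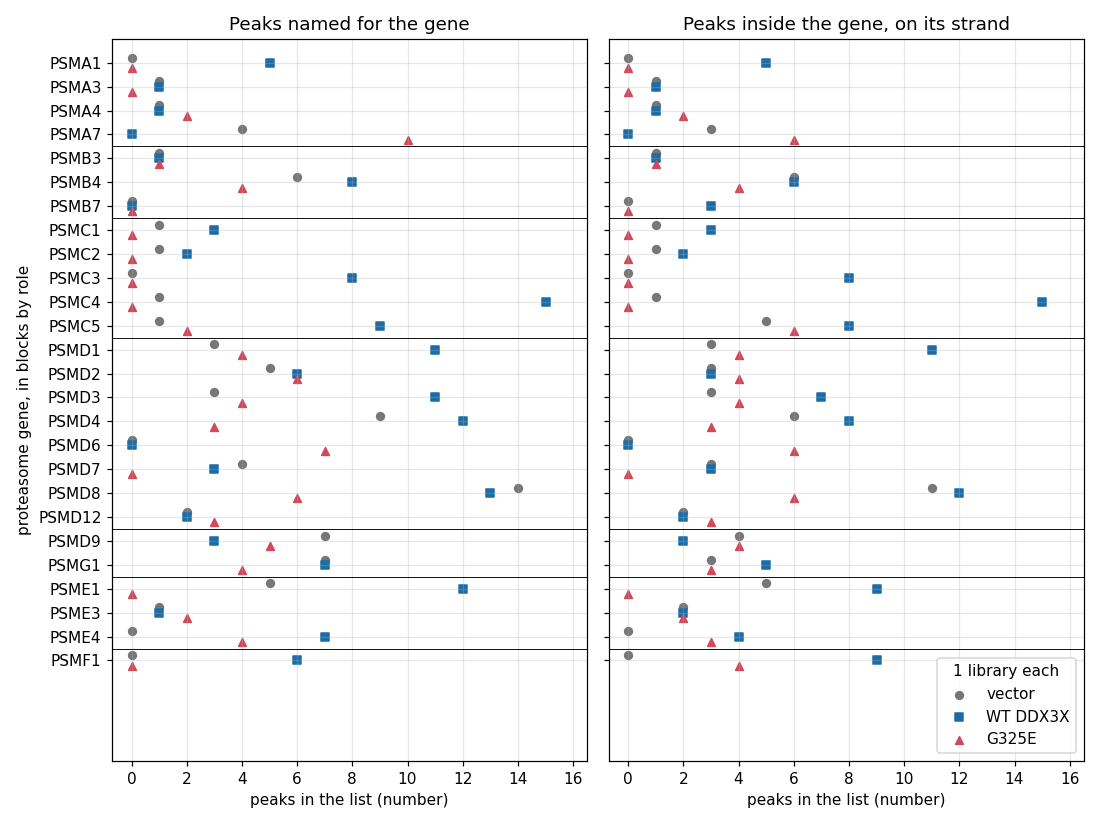
Number of peaks of each proteasome gene in the vector (circles), WT DDX3X (squares) and G325E (triangles) lists, 1 library each, with genes in blocks by role. The left panel counts peaks named for the gene and the right panel peaks inside the gene on its strand, and PSMC4 stands out in both with 15 WT peaks, 1 vector peak and 0 G325E peaks.

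Scaled to the size of each list, 3 proteasome genes were at least 2-fold higher in G325E than in WT and 7 were at least 2-fold lower, of 25 genes with a peak in either list. The same limits called 17.8% of all 3529 genes higher and 10.8% lower. Higher were PSMA7, PSMD6 and PSMD9, and lower were PSMC3, PSMC4, PSMC5, PSMD1, PSMD3, PSMD4 and PSME1, which makes 12% and 28% of the proteasome genes. Against vector, 0 proteasome genes were at least 2-fold higher in G325E and 5 of 22 were lower (PSMB4, PSMD4, PSMD8, PSME1 and PSMG1), where all genes gave 10.4% higher and 14.4% lower. Between WT and vector, 3 of 24 were higher in WT (PSMC4, PSMD1 and PSMD3) and 3 lower (PSMA7, PSMD7 and PSMD9), where all genes gave 4.6% and 11.5%. Counts below 3 were set to 3 in making these calls. PSMD4 and PSME1 were the genes lower in G325E against both other lists, and no gene was higher in G325E against both.

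The 19S ATPase genes together had 4 peaks in vector, 37 in WT and 2 in G325E, or 3.57, 18.6 and 1.28 per 10000 listed peaks. Counted inside the genes on their strand, which adds PSMC5 peaks named for its neighbour FTSJ3, the numbers were 8, 36 and 6. Much of the WT number came from PSMC3 and PSMC4, which were picked out after the data were seen. Without them the genes held 7, 13 and 6 such peaks, or 6.24, 6.53 and 3.83 per 10000. By the assigned count they held 3, 14 and 2 without them, so WT stayed the highest there. All ATPase genes but PSMC6 had peaks.

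PSMC4 (chr19:40477072-40487671, + strand, 11 exons), an ATPase of the ring, had 1 peak in vector, 15 in WT and 0 in G325E, with 0 numbers skipped around the gene in any list. Of the WT peaks 14 lay in the coding sequence, from codon 137 to codon 402 of 418, and all WT peaks together covered 576 bp. The only vector peak was at codon 408. The scaled WT number was 8.45 times that of vector on the counts as listed (1.30 to 356, exact interval), and 2.82 times with the vector count set to the floor of 3 peaks. It was 3.94 times that of G325E with the G325E 0 set to the same floor, and no interval was computed for this ratio.

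PSMC3 (chr11:47440320-47448024, - strand), another ATPase, had 0 peaks in vector, 8 in WT and 0 in G325E, again with 0 numbers skipped. The WT peaks lay side by side in coding exons between codons 103 and 194 of 439. Over the listed peaks WT was 2.10 times G325E with the G325E 0 set to the floor of 3 peaks, and no interval was computed. Neither PSMC3 nor PSMC4 had a peak within the first 10% of the coding sequence, where all coding peaks of PSMC1 and PSMC2 lay, and none of the 4 had one on the start codon.

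PSMC1 (chr14:90722871-90741773, + strand) had 1 peak in vector, 3 in WT and 0 in G325E, between codons 4 and 34. PSMC2 had 1 in vector, 2 in WT and 0 in G325E, and its coding peaks were at codon 14 in both lists. All of these counts were at or under the floor of 3 peaks, so no ratio is given. PSMC5 (chr17:61904512-61909386, + strand) was named in 1 vector, 9 WT and 2 G325E peaks, which reads as a WT excess. Inside the gene on its strand it had 5, 8 and 6 peaks, since 5 of the WT peaks were on the opposite strand and other peaks carried the neighbour's name. The PSMC5 count therefore depended on how peaks were assigned.

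Non-ATPase subunits of the 19S regulator held more peaks than any other role in each list: 40 in vector, 58 in WT and 33 in G325E. PSMD8 (chr19:38865203-38874490, + strand, 7 exons), a lid subunit, had the most peaks summed over the lists and in vector. It had 14 peaks in vector, 13 in WT and 6 in G325E, of which 11, 11 and 6 lay in the coding sequence. In vector and WT the peaks recurred at almost the same places along the whole coding sequence, at codons 154, 169, 178, 299 and 309 in both. The G325E peaks kept to a first cluster at codons 67 to 114 and a last one at codons 307 and 329, with none between. Scaled and as assigned, G325E was 0.307 times vector (0.0966 to 0.849) and 0.586 times WT (0.183 to 1.65). The interval against vector lies below 1, and it takes the peaks of this mRNA as independent. Of the assigned peaks, 3 in vector and 1 in WT lay on the opposite strand. Inside the gene on its strand there were 11, 12 and 6 peaks, for which no interval was computed, so the interval below 1 stands for the assigned peaks only.

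PSMD4 (chr1:151227185-151239955, + strand), a ubiquitin receptor of the regulator, was given 9 peaks in vector, 12 in WT and 3 in G325E. Of these, 3 vector and 4 WT peaks lay in exons of the upstream gene PIP5K1A, so that 6, 8 and 3 were inside PSMD4 itself. The scaled G325E number was 0.239 times vector (0.0415 to 0.956) and 0.318 times WT (0.0575 to 1.18) as assigned. Coding peaks at codon 151 and near codon 232 were in every list, and those from codon 254 to the end were in vector and WT and not in G325E. PIPSL, a retrocopy that joins PIP5K1A to PSMD4, had 0, 11 and 0 peaks, so reads of these near-identical sequences may have been divided between the copies.

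PSMD1 (chr2:231921559-232037830, + strand), a scaffold subunit, had 3 peaks in vector, 11 in WT and 4 in G325E. Its coding peaks numbered 3, 7 and 0, all between codons 828 and 937 of 953, while its 5′ UTR peaks numbered 0, 3 and 3, and 1 number was skipped around the gene in vector and 1 in WT. The G325E list thus held the first-exon peaks of PSMD1 without those at the end of the coding sequence, and the vector list held the reverse. Scaled, G325E was 0.462 times WT (0.107 to 1.56) and 0.954 times vector (0.161 to 6.51), both within counting error.

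PSMD3 (chr17:38137060-38154212, + strand), a lid subunit, repeated the separation along the mRNA. It had 3 peaks in vector, 11 in WT and 4 in G325E. Coding peaks were 0 in vector, 4 in WT at codons 243 to 310, and 2 in G325E at codons 14 and 54, so the WT and G325E coding peaks lay apart, and 1 number was skipped around the gene in vector and 2 in WT. The G325E peak at codon 14 covered 117 bp and included the start codon printed above. Of the WT peaks, 4 were in the promoter-TSS class, upstream of the annotated gene.

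PSMD2 (chr3:184016986-184026838, + strand), a large scaffold subunit, was the even case, with 5 peaks in vector, 6 in WT and 6 in G325E. Most were in the promoter-TSS class (3, 4 and 5). A wide peak over the start codon was in every list, 203 bp long in vector, 176 bp in WT and 159 bp in G325E. Scaled ratios were 0.859 for G325E over vector (0.218 to 3.56) and 1.27 over WT (0.340 to 4.75), which left either direction within counting error.

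PSMD6 (chr3:63996226-64009686, - strand), a lid subunit, had 0 peaks in vector, 0 in WT and 7 in G325E. Of these 5 were in the coding sequence between codons 7 and 98 of 389, and the first, 55 bp long, covered the start codon. With each 0 set to the floor of 3 peaks, the listed G325E number was 2.96 times WT and 1.67 times vector, scaled. No interval was computed for these ratios. Around the gene 1 number was skipped in the vector list and 4 in the WT list, so the 0 values hold for listed peaks only. PSMD7 (chr16:74330712-74340186, + strand), the partner of the regulator's deubiquitinase, ran the other way with 4 peaks in vector, 3 in WT and 0 in G325E, and its coding peaks lay between codons 182 and 253. Around PSMD7 1 number was skipped in vector and 2 in WT. PSMD12 varied little, with 2, 2 and 3 peaks.

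Among the alpha ring genes the totals were 6 peaks in vector, 7 in WT and 12 in G325E, and they rested on different genes. PSMA7 (chr20:60711789-60718496, - strand) had 4 peaks in vector, 0 in WT and 10 in G325E. Of the G325E peaks 8 were in the promoter-TSS class, and 3 lay on the strand of SS18L1, the gene that starts beside PSMA7 in the other direction. Inside the gene on its strand the numbers were 3, 0 and 6. The widest G325E peak, 136 bp, covered the start codon. Over listed peaks G325E was 1.79 times vector (0.516 to 7.81). It was 4.24 times WT with the WT 0 set to the floor of 3 peaks, for which no interval was computed. The vector list skipped 4 numbers around PSMA7 and the WT list 2.

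PSMA1 (chr11:14526420-14665181, - strand) had 0 peaks in vector, 5 in WT and 0 in G325E, with 0 numbers skipped. The 5 lay in the coding sequence at codons 113 to 254 of 263. PSMA3 had 1, 1 and 0 peaks, and PSMA4 had 1, 1 and 2, all near the end of its coding sequence (codons 219 to 246 of 261). The counts of PSMA3 and PSMA4 were too small for a ratio.

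The beta ring was represented by PSMB4 and PSMB3. PSMB4 (chr1:151372036-151374413, + strand), a non-catalytic beta subunit, had 6 peaks in vector, 8 in WT and 4 in G325E. On its own strand the coding peaks were 6, 6 and 4, all in the later part of the coding sequence between codons 142 and 254 of 264. Scaled, G325E was 0.477 times vector (0.0990 to 2.01), which is within counting error. PSMB3 had 1 peak in each list, each at codon 200. The 4 inducible or tissue-specific beta genes (PSMB8, PSMB9, PSMB10 and PSMB11), which replace the standard catalytic subunits in immune cells and thymus, had no peak in any list, with 1 number skipped around PSMB11 in vector.

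The activators had 6 peaks in vector, 20 in WT and 6 in G325E. PSME1 (chr14:24605372-24608176, + strand), a subunit of the interferon-inducible activator, had 5 peaks in vector, 12 in WT and 0 in G325E, with 0 numbers skipped. Of the WT peaks 5 were past the end of the gene on the opposite strand, and 9 peaks, including some named for the neighbour EMC9, lay in its coding sequence. The vector peaks fell between codons 24 and 102 and the WT peaks between codons 15 and 238 of 249, with peaks at codons 28, 73 and 90 in both. With its 0 set to the floor of 3 peaks, G325E was 3.15-fold lower than WT and 2.33-fold lower than vector as assigned. No interval was computed for these ratios. The call against WT was kept under 7 of 8 settings and lost with only the assigned peaks on the gene's strand. The 8 include a 1.5-fold limit, which keeps any 2-fold call by construction. Against vector the call was lost under 4 of 8 settings. PSME2, the partner of PSME1 in the same activator, had none.

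PSME4 (chr2:54091206-54198130, - strand), a single-chain nuclear activator, had 0 peaks in vector, 7 in WT and 4 in G325E. All of its coding peaks were near the start, at codons 38 and 62 in WT and codons 13 and 44 in G325E of 1843. The vector list skipped 3 numbers around the gene and the WT list 4. PSME3, a nuclear activator, had 1, 1 and 2 peaks and a peak on the start codon in every list.

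PSMF1 (chr20:1093883-1170059, + strand), the inhibitor, was named in 0 vector, 6 WT and 0 G325E peaks. Its last coding exon lies beside TMEM74B, whose name some of its peaks carried. Inside the gene on its strand it had 0, 9 and 4 peaks, of which 0, 6 and 4 were in the coding sequence. The G325E peaks were at codons 234 to 260 of 271 and the WT peaks at codons 126 to 260, so the absence of PSMF1 from G325E held only for the names. The WT list skipped 3 numbers around PSMF1 and the vector list 0.

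Assembly chaperones were seen through PSMD9 and PSMG1, with 14 peaks in vector, 10 in WT and 9 in G325E. PSMD9 (chr12:122326638-122356203, + strand), which helps form the ATPase ring, had 7 peaks in vector, 3 in WT and 5 in G325E, and 4, 2 and 4 in its coding sequence. Peaks at the start codon and near codon 30 were in all lists, while the second pair, near codons 110 and 143, was in vector and G325E and not in WT, with 0 numbers skipped. Scaled, WT was 0.241 times vector (0.0403 to 1.06) and G325E was 2.12 times WT (0.412 to 13.6), both within counting error. PSMG1 (chr21:40546695-40555414, - strand), which pairs with PSMG2 to start the alpha ring, had 7 peaks in vector, 7 in WT and 4 in G325E, many of them in the promoter-TSS class (4, 3 and 1). Its scaled G325E number was 0.409 times vector (0.0878 to 1.61).

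The lists also differed in where on these genes the peaks lay. By the annotation, which places a peak near a start site in the promoter-TSS class before any other, this class held 22.1% of proteasome peaks in vector (14.3 to 32.5%, 17 of 77), 18.4% in WT (12.9 to 25.4%, 27 of 147) and 37.3% in G325E (26.7 to 49.3%, 25 of 67). The G325E and WT intervals were apart and the G325E and vector intervals overlapped. Without PSMA7, which held 8 of the G325E peaks of this class, the G325E share was 29.8% (19.5 to 42.7%) and its interval met that of WT. All other genes gave 23.0%, 21.2% and 34.7%, the same order of lists as in the proteasome genes. Peaks of the exon class made up 59.7% in vector, 57.1% in WT and 40.3% in G325E, against 49.4%, 51.55% and 35.5% over all other genes.

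Over the 5′ UTR, exon and 3′ UTR classes alone, the exon class took nearly everything: 46 of 47 peaks in vector (97.9%, 88.9 to 99.6%), 84 of 86 in WT (97.7%, 91.9 to 99.4%) and 27 of 28 in G325E (96.4%, 82.3 to 99.4%). The 5′ UTR class held the remaining 1, 2 and 1 peaks, or 2.13%, 2.33% and 3.57%. Among all other genes the 5′ UTR class was 9.12% in vector, 8.90% in WT and 19.2% in G325E. No proteasome peak was of the 3′ UTR class. The Wilson intervals for these counts of 0 reached 7.56% in vector, 4.28% in WT and 12.1% in G325E. The 3′ UTR class held 2.21%, 2.73% and 2.20% of the peaks of all other genes, which lies within what those counts of 0 allow.

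The canonical transcript gave another picture of the 5′ UTR, since it also places peaks of the promoter-TSS class. By the midpoint of the peak, 6 of 56 proteasome mRNA peaks in vector lay in a 5′ UTR (10.7%, 5.00 to 21.5%), 8 of 112 in WT (7.14%, 3.66 to 13.5%) and 10 of 50 in G325E (20%, 11.2 to 33.04%). All other genes gave 11.99%, 11.9% and 25.7%. The first exon held 25% of proteasome mRNA peaks in vector (15.5 to 37.7%), 17.9% in WT (11.9 to 25.98%) and 58% in G325E (44.2 to 70.6%), against 29.8%, 26.7% and 54.7% over other genes. For the first exon the G325E interval was apart from both others.

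**Figure D2:**
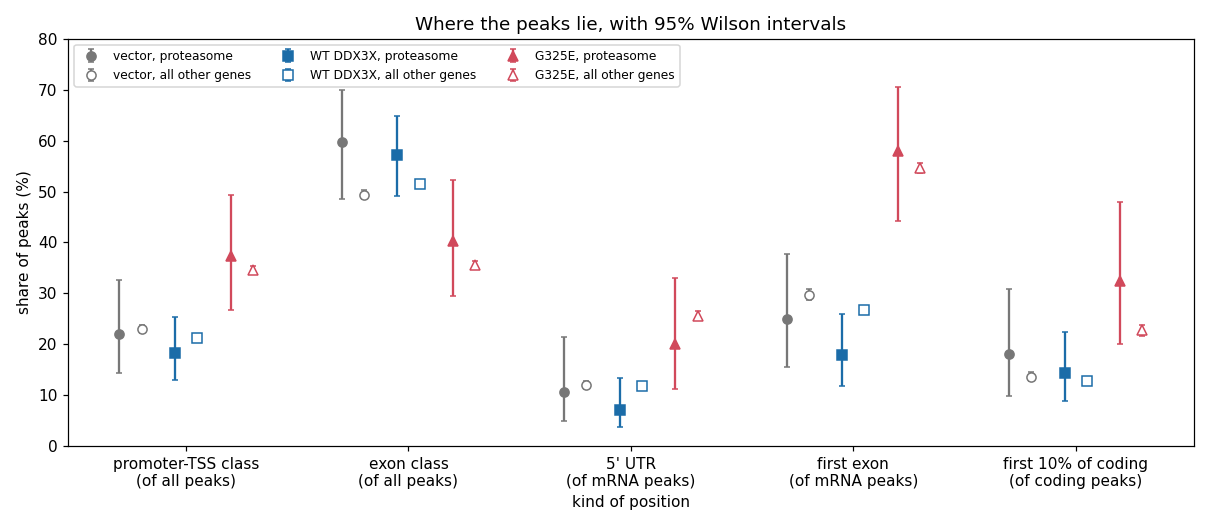
Share of peaks (%) in 5 kinds of position for proteasome genes (filled) and all other genes (open) in each list, with 95% Wilson intervals as bars. In the first exon the G325E share was 58% for proteasome genes, above the 25% of vector and 17.9% of WT, and the open symbols move the same way.

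Start codons were under a peak in 6 of the 20 genes with a peak inside the gene in vector, 6 of 24 in WT and 9 of 17 in G325E, or 30%, 25% and 52.9%. Over all genes with a peak inside them the same was true of 34.5% in vector, 33.1% in WT and 46.5% in G325E. These shares hold for listed peaks only, since the vector and WT lists skipped peak numbers and the G325E list skipped 0. PSMD1 had its start codon covered in WT and G325E, and PSMG1 in vector alone.

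On a scale from 0 at the start codon to 1 at the stop codon, proteasome coding peaks had a mean position of 0.545 ± 0.336 in vector (SD over 50 peaks), 0.540 ± 0.314 in WT (104 peaks) and 0.400 ± 0.369 in G325E (40 peaks). Other genes gave 0.497, 0.504 and 0.401. The first 10% of the coding sequence held 9 of 50 peaks in vector (18%, 9.77 to 30.8%), 15 of 104 in WT (14.4%, 8.94 to 22.4%) and 13 of 40 in G325E (32.5%, 20.1 to 48.0%). These intervals overlapped, and all other genes gave 13.7%, 12.8% and 22.7%.

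**Figure D3:**
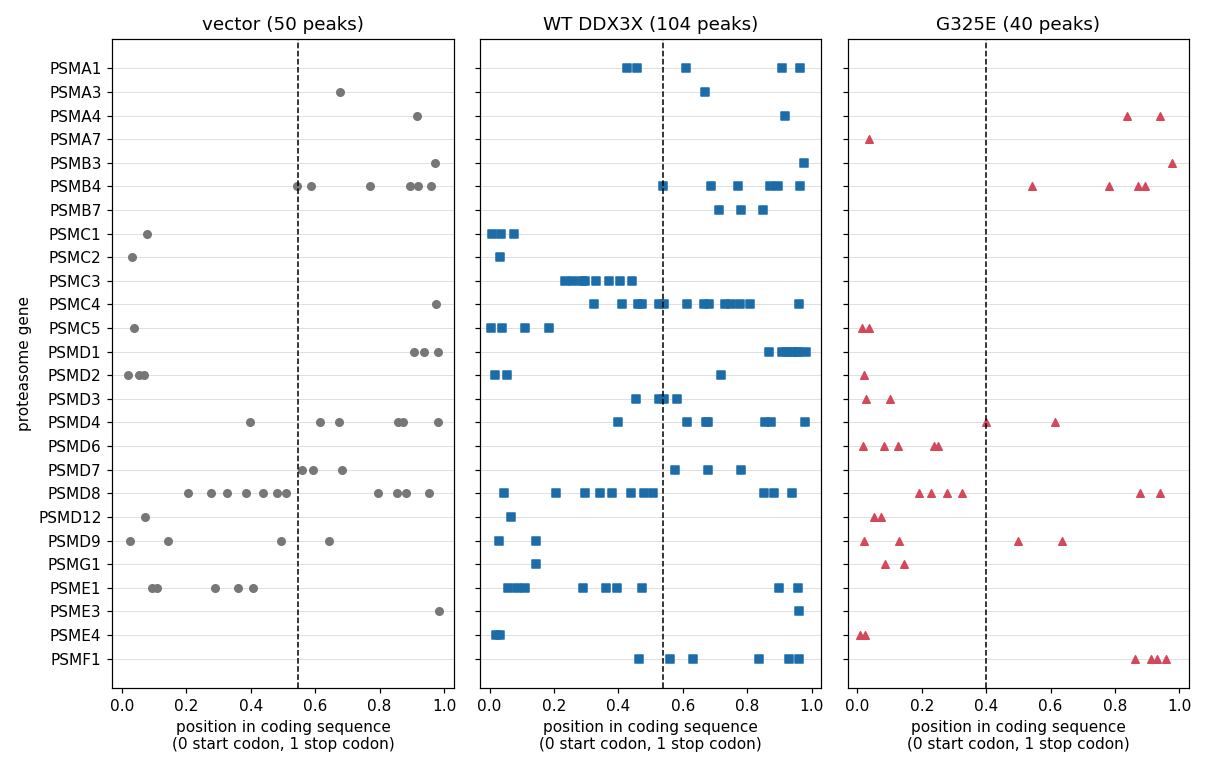
Position of each coding peak along the canonical coding sequence (0 at the start codon, 1 at the stop codon) for each proteasome gene, with 1 panel per list and the mean as a dashed line. G325E has 40 coding peaks with a mean of 0.400, and the runs of WT peaks across PSMC3 and PSMC4 have no counterpart there.

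The sequence around the peaks differed as well. Over 31 nt centred on each proteasome peak, G and C made up 59.5 ± 13.3% in vector (SD over 77 peaks), 58.5 ± 11.8% in WT (147 peaks) and 70.3 ± 12.7% in G325E (67 peaks). Other genes gave 62.7%, 62.3% and 73.1%, so proteasome peaks were slightly lower in every list. G325E was also the highest within annotation classes: exon peaks had 54.3 ± 9.36% in vector, 55.3 ± 8.67% in WT and 62.6 ± 13.6% in G325E, and promoter-TSS peaks had 73.8 ± 9.26%, 68.0 ± 11.8% and 76.3 ± 9.44%. The SDs over peaks were similar in size to the differences or larger.

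**Figure D4:**
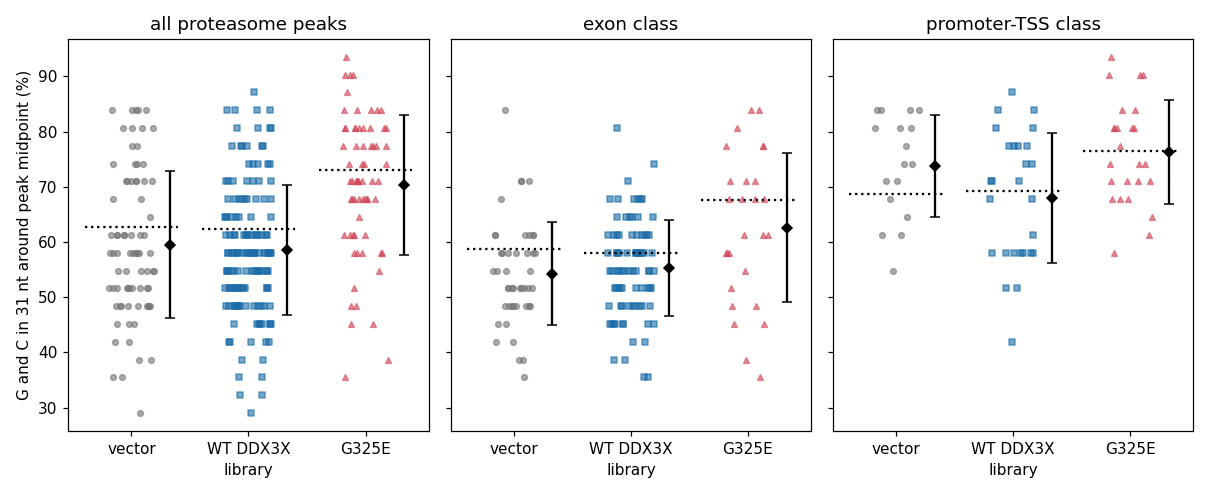
G and C content (%) in 31 nt around each proteasome peak by list, for all peaks, the exon class and the promoter-TSS class. Points are peaks, diamonds with bars are the mean and SD over peaks, and dotted lines are the mean over all other genes, with G325E highest in each panel.

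The G325E list shared 37 of its 67 proteasome peaks with WT (55.2%, 43.4 to 66.5%) and 34 with vector (50.7%, 39.1 to 62.4%), by at least 1 bp on either strand, and 22 overlapped neither. For all other genes the shares with WT and with vector were 47.2% and 35.4%. Peaks that overlapped neither were not counted over other genes, so the 22 have no such share beside them. In the other direction 31 of 147 WT peaks overlapped a G325E peak (21.1%, 15.3 to 28.4%) and 54 overlapped a vector peak (36.7%, 29.4 to 44.8%). Among all other genes 35.0% of WT peaks overlapped a G325E peak and 41.7% a vector peak. Of the vector peaks, 55 of 77 overlapped a WT peak (71.4%) and 30 a G325E peak (38.96%), against 76.8% and 48.2% over all other genes. The 31 WT peaks that overlapped a G325E peak had 65.9 ± 11.4% G and C, and the 116 that did not had 56.5 ± 11.1%. Over other genes the same split gave 67.6% and 59.4%.

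Composition of whole genes separated the lists less. Of the 24 proteasome genes with a WT peak inside them, the 15 that also had a G325E peak had a median coding G and C content of 52.8%, from 40.1% in PSMA4 to 59.4% in PSMD8. The 9 without one had a median of 46.9%, from 40.4% in PSMA3 to 55.7% in PSMC3, so the ranges overlapped widely. PSMC3 and PSMC4, at 55.7% and 55.1%, were above the median of either set and had no G325E peak.

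Genes around the proteasome pathway were counted over 30 genes, of which 21 had a peak in some list: 14 in vector, 14 in WT and 14 in G325E, with 73, 129 and 98 peaks. Of these, 4 are named here. UBA1, the main ubiquitin-activating enzyme, had 9 peaks in vector, 25 in WT and 9 in G325E. ADRM1, a ubiquitin receptor of the 19S regulator, had 12, 16 and 12. ZFAND5, which binds and activates the proteasome, had 6, 16 and 7, and BAG6, a chaperone for misfolded proteins, had 0, 16 and 12, with 0 numbers skipped around it.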

How the data were processed

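Ribosome peaks of 3 libraries were used, 1 per construct. The authors trimmed reads with cutadapt, dropped short ones, aligned with BWA 0.5.5 to hg19 (GRCh37) and RefSeq, removed duplicates, called peaks per sample from read coverage, refined and merged them, reviewed them manually and annotated them with HOMER. The deposited columns hold positions and a distance to the nearest start site in bp, with no count or signal, so no count model or test was run. Harringtonine is named in the labels and not in the study's methods, and which applies is not settled here.

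Peaks were assigned by the stated rule and placed by their midpoint on Ensembl canonical transcripts of GENCODE 44 lifted to GRCh37, on the same strand. Peak numbers were scaled to list totals with a floor of 3 peaks and a 2-fold limit. Intervals are 95% Wilson for shares and exact for ratios. The 2-fold rule and the Wilson intervals were tested on simulated data in which only genes with many peaks were changed. The exact intervals were not tested. Python 3.11.15, pandas 2.3.3 and pysam 0.24.0 were used. Every gene of the rule could be named. Full values were given for the 10 genes with most peaks, for those with at least 3 peaks in 1 list and 0 in another, and for those at least 2-fold apart in both G325E pairs, with the 6 leading pathway genes, of which some are not reported here and are left out of the pathway counts. Members and lists were chosen with earlier results of these data known. PSMB7 was named after its values were seen.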

Additional observations from a re-analysis of the deposited data

How the results depend on the processing

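Of 168 alternative values, 147 stayed within the counting interval, 2 standard errors or 1.5 times the reported count. Some of the 147 could not have moved, so this number overstates how far the results were tried. Coding positions were already limited to the gene's strand, and the highest G325E peak number equals its list total. PSMD6 had 0 peaks in vector and WT and PSMA7 had 0 in WT, so leaving them out changed nothing there. Counting only core and regulator subunits gave shares of 0.508% in vector, 0.557% in WT and 0.332% in G325E. Counting promoter-TSS peaks as 5′ UTR and TTS peaks as 3′ UTR gave 5′ UTR shares of 27.3%, 23.6% and 48.1% and coding shares of 69.7%, 68.3% and 50%. The canonical transcript gave 20% and 80% in G325E. Coding peaks alone had 54.3%, 55.3% and 62.6% G and C. Genes at least 2-fold apart between G325E and WT, 10 as reported, were 4 at a 3-fold limit. Between G325E and vector, 5 became 9 at 1.5-fold, 2 at 3-fold and 3 with core and regulator subunits only, and between WT and vector 6 became 10 at 1.5-fold, 1 at 3-fold and 3 by peaks inside the gene.

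Scaling moved the split of higher against lower genes. Without scaling it was 2 higher and 10 lower for G325E against WT, 2 and 2 for G325E against vector, and 8 and 1 for WT against vector, and with the median ratio over genes 2 and 10, 2 and 2, and 6 and 1. Scaling to the highest peak number gave 3 and 4, 1 and 3, and 3 and 3. PSMC4, PSMA7 and PSMD4 kept their G325E against WT call under all 8 settings that apply to single genes, as PSMD4 and PSMD8 did for G325E against vector. The 8 include the 1.5-fold limit, which keeps any 2-fold call by construction and adds no support. PSMC3 lost it under 2 of 8, and PSMD9 under 5 of 8. PSMC5, PSMD1 and PSMD3 lost it under 3 of 8, and PSMB4, PSME1 and PSMG1 lost theirs against vector under 4 of 8. The alternatives by peaks inside the gene and by highest peak number, and those without PSMA7, PSMD6 or PSMC3 and PSMC4, were chosen after the data were seen. No paired analysis was possible because each construct had 1 library and no test was run. Without heights or replicates, the depth behind a peak and the spread between cultures are unknown.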
